A study of Mus musculus with 4 samples.

Results

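Cathepsins and cystatins are the proteases of the lysosome and the small proteins that block them. The members described here are the 10 genes of the count table whose names are Ctsb, Ctsh, Ctsk, Ctsl, Ctss, Ctsz, Ctsd, Ctsa, Cst3 and Cstb, out of 25413 genes in all. They were read in EpH4 cells, an immortalised line labelled as mouse mammary gland epithelium, of wild-type genotype and grown in 2D culture. The libraries fall into 2 groups of 2: EpH4 cells exposed to PM2.5 (fine particulate matter of the air) and untreated control cells. The labels give no dose, no exposure time and no treatment shared by the controls. Nor do they say that replicates came from different cultures, and each p-value therefore reflects only how these libraries vary, which may be technical. All 4 libraries are from the same line and carry a single batch value.

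Most cathepsins are cysteine proteases of the papain type. They are made as inactive precursors, sorted to the lysosome through mannose 6-phosphate tags, and trimmed to the active form in its acid interior. Cathepsin D cuts with a pair of aspartates and cathepsin A is a serine carboxypeptidase. Cystatins bind the active-site cleft of papain-type cathepsins, cystatin C from outside the cell and in the secretory route and cystatin B in the cytosol. In the mouse mammary gland, cathepsins B and L are known for their part in the loss of epithelium after weaning, when STAT3 raises their expression.

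Total raw counts were 20232277 and 18548478 in the PM2.5 libraries and 19562930 and 26206329 in the control libraries. Defining epithelial transcripts were at or near 0: of 12 epithelial markers, 11 had a mean below 1 CPM (counts scaled to library size with TMM factors) and 6 had 0 counts throughout, Epcam and Krt18 among them. Krt14, the other of the 12, had 20.7 and 18.6 CPM in PM2.5 and 53.0 and 51.0 CPM in controls. Summed fibroblast markers reached 5103 and 5712 CPM in PM2.5 and 6638 and 7389 CPM in controls, most of it Fn1 and Col1a2. Of the 8 fibroblast markers tested, 3 were called higher (Dcn 3.88-fold, Col3a1 3.13-fold and Col1a1 1.39-fold) and 4 lower (Postn, Pdgfrb, Fn1 and Col1a2). Of 12 macrophage markers, 8 had a mean below 1 CPM, with Itgam, Tyrobp, H2-Aa and H2-Ab1 at 0, and the list summed to 63.0 and 68.9 CPM in PM2.5 and 63.8 and 73.2 CPM in controls, most of it Cd14. Of the 4 macrophage markers tested, Cd74 was called higher (2.81 and 2.26 CPM in PM2.5 and 1.47 and 1.51 CPM in controls, 1.70-fold, edgeR adjusted p = 0.0448) and Mpeg1, Lyz2 and Cd14 were not. Of 9 osteoclast markers, 8 had a mean below 1 CPM, and the list summed to 48.8 and 48.7 CPM in PM2.5 and 43.7 and 40.9 CPM in controls, most of it Nfatc1. Of the 2 osteoclast markers tested, Itgb3 was called higher (1.16 and 1.26 CPM in PM2.5 and 0.315 and 0.698 CPM in controls, 2.28-fold, edgeR adjusted p = 0.0452) and Nfatc1 was not. The control counts of Itgb3 alone would have been too few for it to enter the test. Over all genes tested, 19.2% were called higher and 20.4% lower. The part of any of these markers in the differences between the groups was not tested.

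PM2.5 cells held more transcript of 6 of the 7 members with enough counts to test: Ctsl, Ctsb, Ctsz, Ctsd, Ctsa and Cstb. The secreted inhibitor Cst3 was not called, and Ctsk, Ctsh and Ctss were at or near 0. Ctsl showed the largest difference of the 7, 2.05-fold, and Ctsa the smallest of the 6 called, 1.16-fold. Calls are at an adjusted p below 0.05 in edgeR's quasi-likelihood test with Benjamini-Hochberg adjustment over 12478 genes, of which 19.2% were called higher and 20.4% lower. Both PM2.5 libraries lay above both controls in those 6 members, as they did in 35.9% of all genes tested. Set against the genes around them, 5 members were higher and 1 lower, where 16.4% of all genes were higher and 16% lower. The median log2 fold change was 0.34 over the 7 tested members and 0.01 over all genes tested. A difference in a bulk library cannot tell a change in the number of cells that express a gene from a change in RNA per cell.

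**Figure D1:**
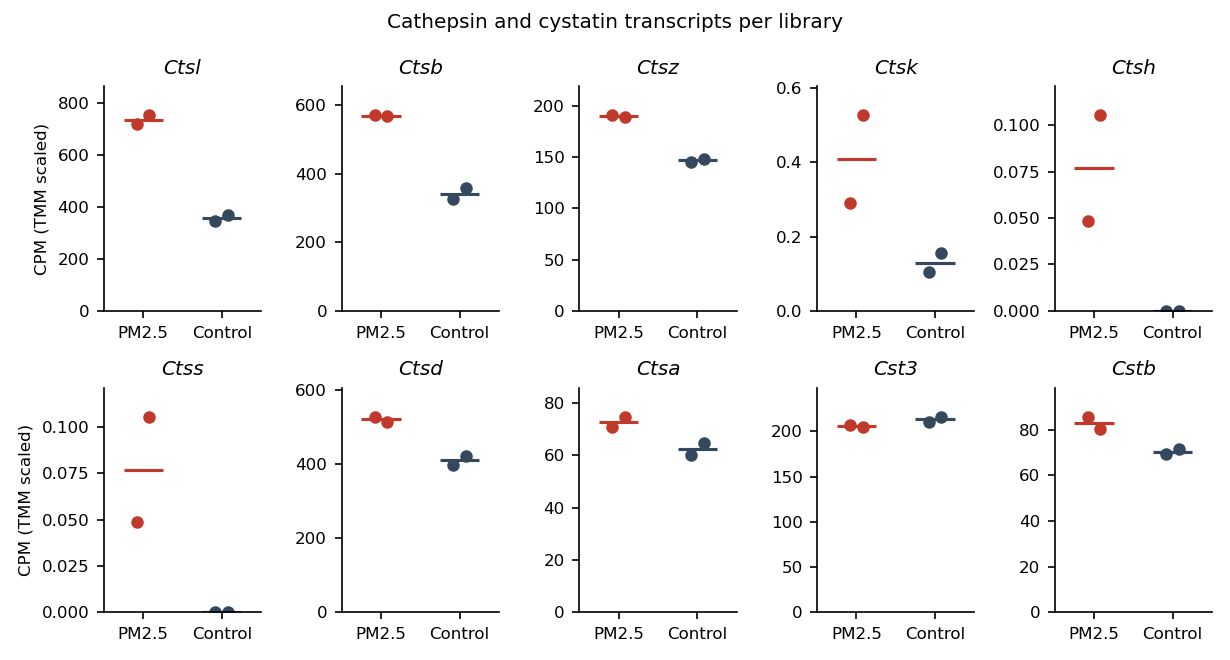
Transcript level of each member in CPM (vertical axes, each from 0 and with its own scale), with points for the 2 PM2.5 and the 2 control libraries and bars for their means. In the 7 tested genes Ctsl, Ctsb, Ctsz, Ctsd, Ctsa, Cst3 and Cstb the groups do not overlap, and Cst3 is the one in which PM2.5 lies below the controls.

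Ctsl encodes cathepsin L, an endopeptidase of the lysosome (ENSMUSG00000021477, chromosome 13, 64507151 to 64518704, minus strand, on GRCm39 like all gene positions here). It had 718 and 752 CPM in the PM2.5 libraries and 347 and 370 CPM in the control libraries. The lowest PM2.5 library was thus far above the highest control, and means were 735 ± 24.5 CPM in PM2.5 and 358 ± 16.1 CPM in controls (SD, n = 2 each). The log2 fold change was 1.04 (SE 0.059, edgeR adjusted p = 1.11e-06). The 65 tested genes within 5 Mb had a median log2 fold change of 0.20. Set against this median, Ctsl was at 0.84 (edgeR adjusted p = 4.95e-06). Ctsl was the only member called when a change beyond 1.5-fold was required (edgeR adjusted p = 0.000117), a rule under which 3.21% of all genes were called higher. Ctsl ranked 209 in mean CPM among the 12478 genes tested, and 550 in size of the rise among the 2400 called higher.

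Ctsb encodes cathepsin B, which acts as an endopeptidase and as a dipeptidase at the carboxyl end (ENSMUSG00000021939, chromosome 14, 63359911 to 63383372, plus strand). It had 570 and 568 CPM in PM2.5 and 327 and 357 CPM in controls, with no overlap between the groups. The log2 fold change was 0.73 (SE 0.060, adjusted p = 1.32e-05), a 1.66-fold difference. Ctsb lies in a stretch of chromosome 14 where the 52 tested genes within 5 Mb had a median log2 fold change of 0.27. Once each gene was set against the median of its neighbours, the value for Ctsb was 0.47 (adjusted p = 2.54e-04). The gene overlaps Fdft1 on the other strand, which had 2044 and 1972 counts in PM2.5 and 1450 and 2356 in controls, so some reads may be shared.

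Ctsz encodes cathepsin Z, a carboxypeptidase also called cathepsin X (ENSMUSG00000016256, chromosome 2, 174269286 to 174280832, minus strand). It had 190 and 189 CPM in PM2.5 and 145 and 148 CPM in controls, again without overlap. Its log2 fold change was 0.37 (SE 0.055, adjusted p = 4.83e-04). The neighbours of Ctsz had a median of 0.19, and against them its value was 0.18 (adjusted p = 0.0282), still called. It overlaps Nelfcd on the other strand.

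The remaining 3 cysteine cathepsins had few counts. Ctsk, cathepsin K, the collagen-degrading enzyme of osteoclasts (ENSMUSG00000028111, chromosome 3, 95406567 to 95416673, plus strand), had 6 and 10 counts in PM2.5 and 2 and 4 counts in controls. That was 0.29 and 0.53 CPM in PM2.5 and 0.11 and 0.16 CPM in controls, too few to enter the test. Without a filter on low counts its adjusted p was 0.2. Ctss, cathepsin S, which trims the invariant chain in antigen-presenting cells (ENSMUSG00000038642, chromosome 3, 95434097 to 95463714, plus strand), starts 17.4 kb beyond the end of Ctsk. It had 1 and 2 counts in PM2.5 and 0 in both controls. Ctsh, cathepsin H, an aminopeptidase (ENSMUSG00000032359, chromosome 9, 89936205 to 89958142, plus strand), had the same counts, 1 and 2 in PM2.5 and 0 in both controls. A count of 0 allows up to 3 counts, or 0.153 and 0.115 CPM by library total in the controls, so no fold is given for Ctss and Ctsh. These limits cover counting error only.

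Ctsd encodes cathepsin D, the main aspartic protease of the lysosome (ENSMUSG00000007891, chromosome 7, 141929648 to 141941775, minus strand). It had 527 and 513 CPM in PM2.5 and 397 and 422 CPM in controls, so that every PM2.5 library exceeded every control. The log2 fold change was 0.34 (SE 0.057, adjusted p = 9.48e-04), and 0.30 (adjusted p = 0.00295) against its neighbours, whose own median was 0.05. Ctsd shares its region and strand with the predicted gene Gm49369, which had 25 and 17 counts in PM2.5 and 10 and 10 in controls.

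Ctsa encodes cathepsin A, which also protects the neuraminidase and beta-galactosidase of the lysosome (ENSMUSG00000017760, chromosome 2, 164674793 to 164682952, plus strand). It had 70.8 and 74.7 CPM in PM2.5 and 60.2 and 64.9 CPM in controls. The groups do not overlap, though the gap between their nearest libraries was of the order of the spread within each. Its log2 fold change was 0.22 (SE 0.069, adjusted p = 0.0292). Neurl2 and Pltp overlap it on the other strand, with 6 to 18 counts between them in each library. The call on Ctsa ended with DESeq2 (adjusted p = 0.0789), without Control replicate 1 (0.123), PM2.5 replicate 1 (0.0551) or PM2.5 replicate 2 (0.201), and against its neighbours (log2 fold change 0.09, adjusted p = 0.336).

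Of the inhibitors, Cstb was called higher and Cst3 was not called. Cst3 encodes cystatin C (ENSMUSG00000027447, chromosome 2, 148713642 to 148717612, minus strand) and had 207 and 205 CPM in PM2.5 and 210 and 216 CPM in controls. The PM2.5 libraries lay just below the controls, and the log2 fold change was -0.05 (SE 0.054, adjusted p = 0.499). Its sign turned when libraries were scaled to their size only (0.01, adjusted p = 0.857). The neighbours of Cst3 had a median of 0.11, and set against them it was called lower, at -0.16 (adjusted p = 0.046). Cstb encodes cystatin B (ENSMUSG00000005054, chromosome 10, 78261503 to 78263456, plus strand) and had 85.7 and 80.2 CPM in PM2.5 and 69.3 and 71.4 CPM in controls. Its log2 fold change was 0.24 (SE 0.065, adjusted p = 0.0151), which was not called once PM2.5 replicate 1 was left out (0.19, adjusted p = 0.149). Against its neighbours, whose median was -0.04, the value for Cstb was 0.28 (adjusted p = 0.00834).

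**Figure D2:**
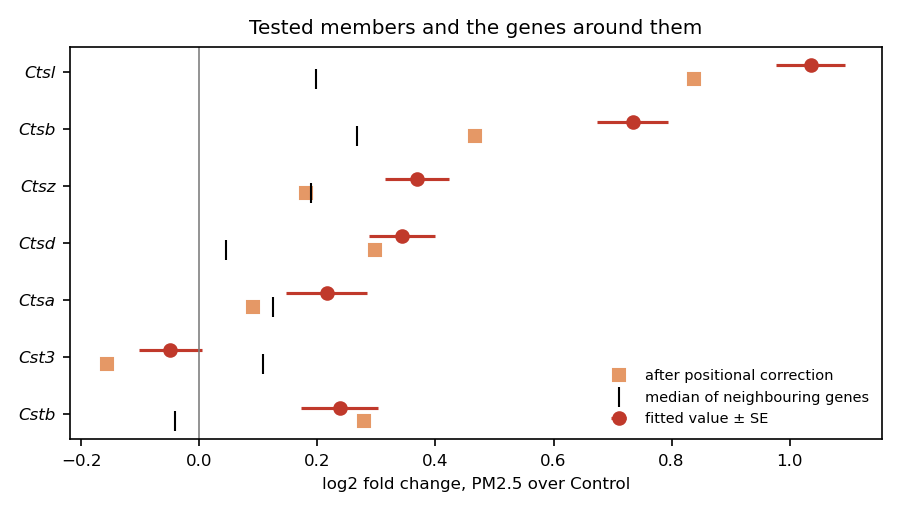
Log2 fold change of PM2.5 over control (horizontal axis) for the 7 tested members, with the fitted value and its SE (circles), the value after each gene is set against its neighbours (squares) and the median of the neighbours themselves (ticks). Ctsl stays farthest to the right on both scales, at 1.04 and 0.84, while Ctsa comes close to 0 at 0.09.

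Because a ratio within a library does not depend on how libraries are scaled, the members were also set against one another. The summed RPKM of the 6 cysteine cathepsins over the summed RPKM of Cst3 and Cstb was 0.997 and 1.04 in PM2.5 and 0.654 and 0.670 in controls. The mean was 1.02 ± 0.0301 in PM2.5 and 0.662 ± 0.0114 in controls (SD, n = 2 each), 1.54 times higher with PM2.5. Ctsl carried part of this, since without it the ratio was 0.689 and 0.706 in PM2.5 and 0.495 and 0.505 in controls, 1.40 times higher. The ratio also rests on the gene lengths behind RPKM, which for Ctsl is near the longest of its principal transcripts, as described below. From CPM, which uses no length, it was 5.05 and 5.29 in PM2.5 and 2.93 and 3.05 in controls, 1.73 times higher. With 2 libraries against 2, an exact permutation test cannot give a two-sided p below 0.333, so these ratios are described without a test. They are ratios of transcripts and say nothing of enzyme activity. Nor were they set against neighbouring genes, whose median log2 fold changes were 0.27 for Ctsb, 0.20 for Ctsl and 0.19 for Ctsz. For Cst3 and Cstb these medians were 0.11 and -0.04. The part of these regional differences in the ratios was not tested.

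Ctsl also gained on the other cathepsins. Counts of Ctsl over those of Ctsb were 1.26 and 1.33 in PM2.5 and 1.06 and 1.04 in controls. Over Ctsd they were 1.36 and 1.47 in PM2.5 and 0.875 and 0.875 in controls. Ctsl thus passed Ctsd in count in PM2.5 and stood below it in controls. These counts, and the shares of CPM that follow, are not divided by gene length. By RPKM Ctsl stayed below Ctsd in both groups, with 95.6 and 101 against 209 and 204 in PM2.5. In CPM, the 8 cathepsins together made up 2076 and 2097 in PM2.5 and 1276 and 1363 in controls. Ctsl held 34.6% and 35.9% of that sum in PM2.5 and 27.2% and 27.1% in controls. Ctsd held 25.4% and 24.5% of it in PM2.5 and 31.1% and 31.0% in controls. The sum of both cystatins was 293 and 285 CPM in PM2.5 and 280 and 287 CPM in controls, where the groups overlap.

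**Figure D3:**
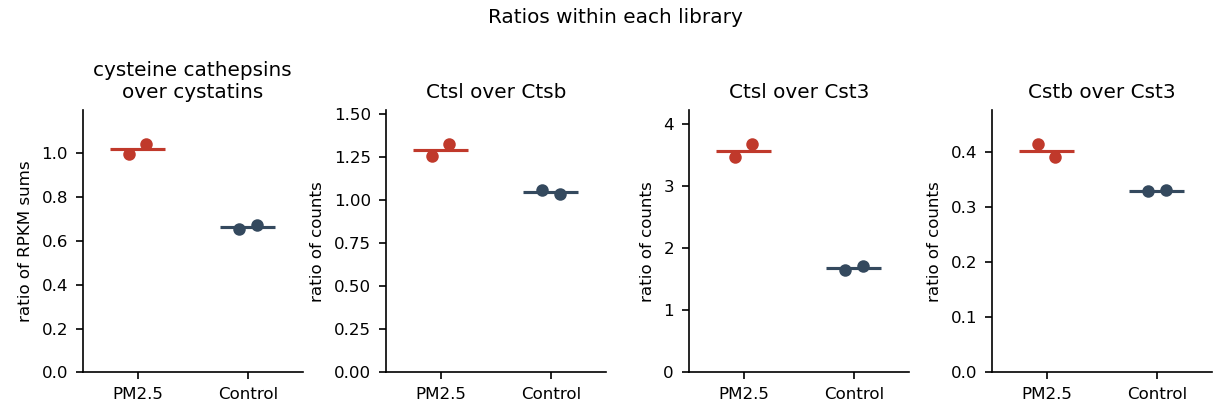
Ratios within each library (vertical axes from 0) for the summed cysteine cathepsins over the summed cystatins in RPKM, and for Ctsl over Ctsb, Ctsl over Cst3 and Cstb over Cst3 in counts, with points for libraries and bars for means. In each ratio both PM2.5 libraries lie above both controls, most widely in Ctsl over Cst3, with means of 3.57 in PM2.5 and 1.68 in controls.

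Levels of different genes can be compared only per length. By the authors' RPKM, which divides by a gene's length, the order in PM2.5 was Ctsd (209 and 204 RPKM), Cst3 (190 and 189), Cstb (120 and 113), Ctsz (111 and 111), Ctsb (101 and 101), Ctsl (95.6 and 101) and Ctsa (16.3 and 17.2). In controls the order was Cst3 (190 and 195 RPKM), Ctsd (155 and 165), Cstb (95.5 and 98.7), Ctsz (83.8 and 85.7), Ctsb (57.3 and 62.8), Ctsl (45.6 and 48.6) and Ctsa (13.6 and 14.7). Ctsd and Cst3 thus changed places between the groups, and Ctsb and Ctsl, well apart in controls, did not differ beyond the spread of Ctsl in PM2.5. The place of Ctsl rests on its length. CPM by library total over RPKM came to 1.20 times the length of the principal transcript in kb for Ctsb, Ctsz, Ctsd, Ctsk and Cstb alike, a common factor. For Ctsl it came to 1.23 times the longest of its principal transcripts in GENCODE M21, which run from 1.97 to 6.17 kb, so its RPKM rests on a length near the longest. CPM by library total per kb of the shortest principal transcript put Ctsl at rank 1 in PM2.5, with 371 and 391, and at rank 3 in controls, with 171 and 185. Which transcripts of Ctsl are present in these cells cannot be read from counts per gene.

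**Figure D4:**
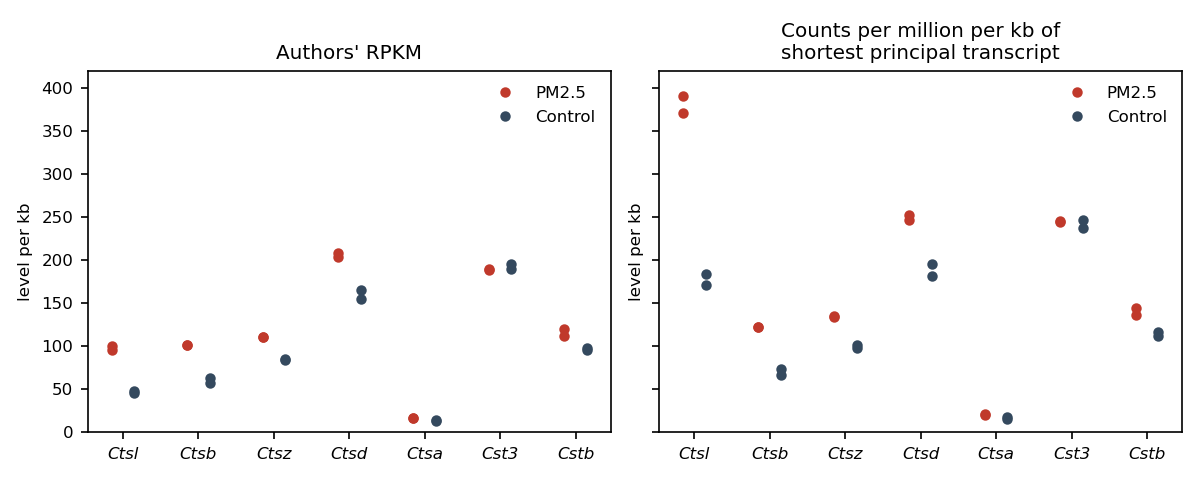
Level per kb (vertical axes, from 0) of the 7 tested members in the 2 PM2.5 and 2 control libraries, by the authors' RPKM on the left and by the length of the shortest principal transcript on the right. Ctsl moves from sixth on the left to above Ctsd and Cst3 in PM2.5 on the right.

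For the tested members the raw count lay close to another count in the deposit. This second count, named total gene reads in the headers and not defined there, was never below the raw count. The raw count made up 95.8% to 99.4% of it for the 7 tested members, against 88.3% to 90.2% over all genes. For Ctsk it was 17 and 20 in PM2.5 and 13 and 15 in controls, more than its raw count in every library.

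Sequences before annotated starts are shown for the members whose windows hold CACGTG, the core of the site bound by TFEB, TFE3 and MITF. These factors drive many lysosomal genes. Cst3 is shown as an example of a window that holds none, as is also the case for Ctsz, which was called higher. RefSeq windows on GRCm38.p6 matched 7 of the 10 members by symbol, with 8 windows in all. The 250 bases before each start are given 5′ to 3′, with CACGTG in capitals.
Ctsd (chr7:142387828-142388077, minus strand): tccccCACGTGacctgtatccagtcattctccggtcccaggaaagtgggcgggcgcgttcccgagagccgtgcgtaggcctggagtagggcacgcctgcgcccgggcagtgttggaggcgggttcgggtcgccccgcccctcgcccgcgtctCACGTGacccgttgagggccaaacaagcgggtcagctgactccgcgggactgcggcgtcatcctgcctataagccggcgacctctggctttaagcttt
Ctsa (chr2:164833523-164833772, plus strand): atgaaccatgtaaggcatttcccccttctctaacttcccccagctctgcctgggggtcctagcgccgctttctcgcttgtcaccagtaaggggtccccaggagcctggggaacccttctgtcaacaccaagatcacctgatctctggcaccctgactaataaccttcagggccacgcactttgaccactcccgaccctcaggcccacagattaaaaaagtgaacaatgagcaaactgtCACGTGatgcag
Ctsl (chr13:64370521-64370770, minus strand): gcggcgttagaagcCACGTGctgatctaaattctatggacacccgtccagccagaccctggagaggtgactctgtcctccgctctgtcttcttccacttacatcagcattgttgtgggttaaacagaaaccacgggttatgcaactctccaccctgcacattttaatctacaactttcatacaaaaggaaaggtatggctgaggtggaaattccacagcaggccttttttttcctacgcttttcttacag
Cst3 (chr2:148875513-148875762, minus strand): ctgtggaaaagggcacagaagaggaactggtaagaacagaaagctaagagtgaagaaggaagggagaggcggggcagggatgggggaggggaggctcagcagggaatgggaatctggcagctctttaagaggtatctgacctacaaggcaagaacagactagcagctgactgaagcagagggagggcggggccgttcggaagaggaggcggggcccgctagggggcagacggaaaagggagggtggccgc
CACGTG, which reads the same on both strands, occurred in 3 of the 8 windows and in 6.02% of 32851 RefSeq windows of the same length. In Ctsd its first base was at -98 and -245, counted so that the base before the start is -1. In Ctsa it was at -12 of the second of its 2 windows, and in Ctsl at -236. The window of Ctsl ends in a stretch rich in t and c and then ag, like the end of an intron. It may thus lie inside the gene and not at a promoter, which was not checked. The longer TCACGTG, which contains CACGTG and was searched on both strands, was present in Ctsd and Ctsa and in 3.13% of all windows. The windows of Ctsz, which was called higher, and of Ctsk and Ctss held neither. Ctsb and Cstb, both called higher, had no window. GCGTG, the core of the site of the aryl hydrocarbon receptor, occurred on either strand in the window of Ctsd and in both windows of Ctsa, and in 28.2% of all windows. These are matches of letters and not measured binding, and whether they go with the calls was not tested.

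Most of the wider family had no counts. Of 37 further cathepsin, cystatin and related genes, 36 were in the table, and 24 of these had 0 counts in every library. The 4 with enough counts to test were all higher in PM2.5, as were 19.2% of all genes tested. Of these 4, Kng2 entered the test only through its PM2.5 counts, so its call adds no support. Ctso, cathepsin O, had 24.8 and 26.1 CPM in PM2.5 and 11.9 and 14.4 CPM in controls, or 1.92-fold more (SE of the log2 value 0.110, adjusted p = 0.000114). Cst6, cystatin M/E, an inhibitor of cathepsin L and legumain, had 17.4 and 17.0 CPM in PM2.5 and 9.41 and 8.91 CPM in controls, or 1.88-fold more (adjusted p = 0.000155). Tinagl1, which has a papain-like fold without protease activity, had 53.0 and 45.0 CPM in PM2.5 and 30.1 and 24.5 CPM in controls. Kng2, a kininogen with cystatin domains, had 1.94 and 1.95 CPM in PM2.5, against 2 counts in each control, and a log2 fold change of 4.35 (SE 0.482, which lies below counting error). With so few control counts the size of the Kng2 difference depends on the scale, and limma-trend gave 2.46 at a pseudocount of 0.1 RPKM and 0.64 at 1 RPKM. Ctsc, cathepsin C, named after its values were seen, was listed at 0 raw counts and 0 total gene reads in all 4 libraries. Whether a 0 reflects the cells or the counting cannot be told apart from these tables.

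Among 11 tested genes that process cathepsins or act beside them, 5 were higher in PM2.5 and 0 lower, with a median log2 fold change of 0.29. The shares over all genes tested were 19.2% higher and 20.4% lower. Napsa, an aspartic protease close to cathepsin D, had 15.7 and 18.1 CPM in PM2.5 and 6.25 and 6.16 CPM in controls (log2 fold change 1.45, SE 0.129, adjusted p = 2.11e-05). Psap, the precursor of the saposins, had 1102 and 1135 CPM in PM2.5 and 815 and 880 CPM in controls. The peptidase Tpp1 and the proprotein convertase Furin had log2 fold changes of 0.44 and 0.29, and that of Furin was no longer called without PM2.5 replicate 2 (0.23, adjusted p = 0.0557). Lgmn, legumain, which trims cathepsins B, H and L, was named after its values were seen. It had 54.8 and 52.7 CPM in PM2.5 and 58.0 and 64.9 CPM in controls and was not called (log2 fold change -0.20, adjusted p = 0.058). It was called lower with no filter (0.0207), with a replicate block (0.0314) and without Control replicate 1 (0.0121).

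Of 17 tested genes that carry hydrolases to the lysosome, 2 were higher and 5 lower, with a median of -0.03. Among all genes tested 19.2% were higher and 20.4% lower. The adaptor subunit Ap1g1 had 171 and 174 CPM in PM2.5 and 231 and 226 CPM in controls, and the retromer subunit Vps35 had 256 and 231 CPM in PM2.5 and 326 and 334 CPM in controls. Both lie on chromosome 8, where their neighbours had medians of -0.35 and -0.28, and against these neighbours neither was called (adjusted p = 0.521 and 0.0724). The adaptor Gga3, with 44.8 and 46.8 CPM in PM2.5 and 60.3 and 56.2 CPM in controls, was called lower (adjusted p = 0.00325) and was also called lower against its neighbours (adjusted p = 0.0221). The sorting receptor Sorl1 had 1.55 and 1.63 CPM in PM2.5 and 0.578 and 0.620 CPM in controls, and its call ended with DESeq2 (adjusted p = 0.0669), with limma-trend at a pseudocount of 1 (0.213) or 0.1 RPKM (0.101), and without PM2.5 replicate 2 (0.0713). With every gene set against its neighbours 4 of the 17 were higher and 4 lower, where 16.4% of all genes were higher and 16% lower. The balance moved with the scaling, to 6 higher and 3 lower with library size only and 5 and 3 with upper quartile. Shares over all genes were 24.6% higher and 15.1% lower with library size only, and 22.7% and 16.6% with upper quartile. DESeq2 called 0 higher and 3 lower, where 12.7% of all genes were higher and 15.5% lower.

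Of 25 other hydrolases of the lysosome tested, 13 were higher and 1 lower, with a median of 0.24. The shares over all genes tested were 19.2% and 20.4%. Lipa, the acid lipase, had 205 and 206 CPM in PM2.5 and 76.9 and 76.6 CPM in controls, 2.68-fold more (SE of the log2 value 0.057, adjusted p = 1.02e-07). The neighbours of Lipa had a median of 0.26, and against them its log2 fold change was 1.16 (edgeR adjusted p = 4.27e-07). The sulfatase Arsb and the glucosaminidase Naglu were 1.56-fold and 1.64-fold higher. Against their neighbours 14 of the 25 were higher and 0 lower, where 16.4% of all genes were higher and 16% lower.

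Of 13 tested genes for the lysosomal membrane and its transcription factors, 6 were higher and 0 lower, with a median of 0.17. Among all genes tested 19.2% were higher and 20.4% lower. The glycoproteins Lamp2 and Lamp1 had 437 and 430 CPM and 800 and 757 CPM in PM2.5, against 309 and 354 CPM and 660 and 684 CPM in controls. Cd68, a related glycoprotein, had 9.01 and 10.3 CPM in PM2.5 and 3.63 and 4.22 CPM in controls. The transcription factor Mitf had 247 and 258 counts in PM2.5 and 108 and 167 counts in controls, or means of 12.8 CPM in PM2.5 and 6.07 CPM in controls (log2 fold change 1.06, SE 0.139, adjusted p = 2.29e-04). Tfeb, named after its values were seen, was called (log2 fold change 0.28, adjusted p = 0.0437), and was called in 9 of 16 alternatives. Of the related factors in the same list, also named after their values were seen, Tfe3 was tested and not called. Tfec had 0 counts in every library. Lamp1 was not called once PM2.5 replicate 1 was left out (0.17, adjusted p = 0.165).

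Other protease inhibitors went both ways, with 3 of 10 tested higher, 3 lower and a median of -0.12. The shares over all genes tested were 19.2% higher and 20.4% lower. Timp3, an inhibitor of metalloproteinases, had 21.9 and 22.9 CPM in PM2.5 and 153 and 149 CPM in controls, and Timp1 had 33.8 and 35.2 CPM in PM2.5 and 51.2 and 44.5 CPM in controls. The serine protease inhibitors Slpi, with 610 and 692 CPM in PM2.5 and 332 and 461 CPM in controls, and Serpina3n, with 3.97 and 5.11 CPM in PM2.5 and 0.263 and 0.388 CPM in controls, were higher. The SE of the log2 fold change of Serpina3n, 0.340, lies below counting error, and the value itself was 3.74 in edgeR and 1.33 in limma-trend at a pseudocount of 1 RPKM. With 5 and 10 counts in controls, Serpina3n entered the test only through its PM2.5 counts. Its call thus adds no support to the count of 3 higher. Serpina3g, which inhibits cysteine cathepsins in mouse cells and was named after its values were seen, had 8 and 10 counts in PM2.5 and 3 and 0 in controls and was not tested.

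**Figure D5:**
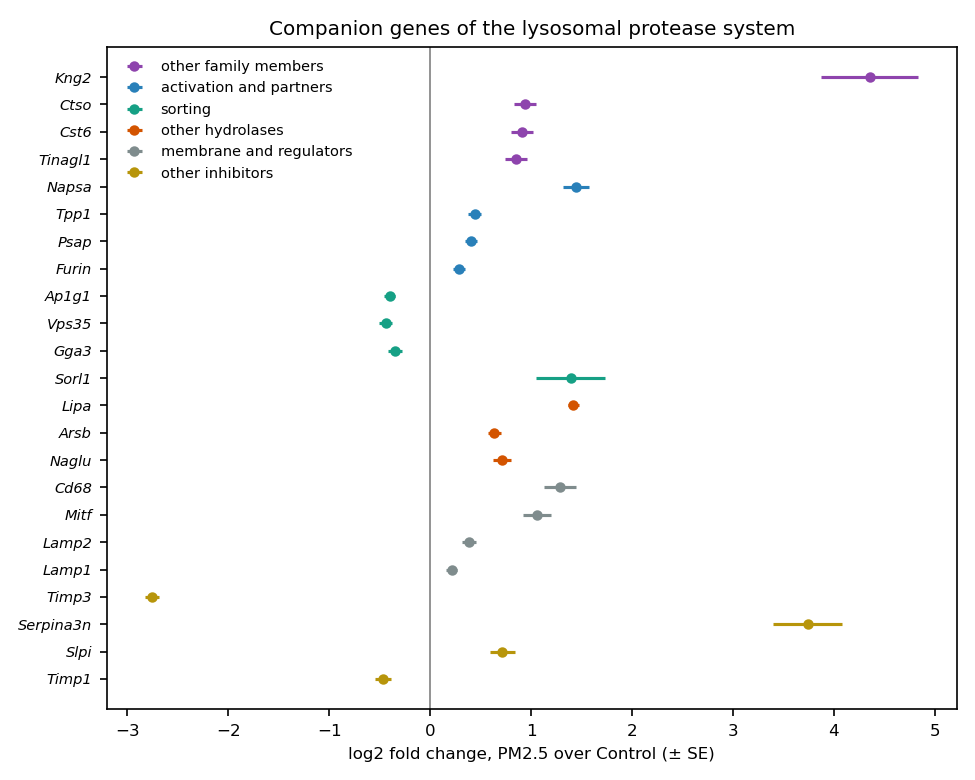
Log2 fold change of PM2.5 over control with its SE (horizontal axis) for the companion genes named in the text by the rule of smallest p-value, coloured by list. Most lie to the right of 0, and the 5 to the left are Ap1g1, Vps35, Gga3, Timp3 and Timp1.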

How the data were processed

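The authors deposited raw counts per gene for 4 libraries made from 750 ng of total RNA each with a stranded polyA kit, per the labels' protocols, and positions are on GRCm39 per the submitters' processing notes. RPKM values, which divide counts by gene length and library size, were deposited by the authors too, per the file headers. The sources used here name no aligner, counter or annotation release, and do not say if counting used strand. The analysis used R 4.3.3, edgeR 4.0.16 (filterByExpr, TMM, quasi-likelihood test, all 4 libraries, no covariate), DESeq2 1.42.0 and limma 3.58.1. Each SE was obtained by dividing the log2 fold change's size by the root of its F statistic. The scripts were tested on simulated data. Counting noise alone did not account for replicate differences (chi-square per gene 3.63 in PM2.5, 6.92 in controls). A count of 3 equals 0.115 to 0.162 CPM by library total.

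Members and lists were chosen with earlier results of these data known, and no list was tested as a set. Companion genes named were the up to 4 called genes of smallest p-value in each list, others are marked, and 1 gene under this rule is not reported here. The positional correction subtracted, through the offset, the median log2 fold change of tested genes within 5 Mb on either side. The other alternatives were median-ratio factors, library size only, upper quartile, no filter, a stricter filter (minimum 1 CPM, 50 counts), DESeq2, limma-voom, limma-trend on log2 RPKM with pseudocounts 1 or 0.1, a minimum change of 1.5-fold, a replicate block and leaving out each library. The transcript lengths of GENCODE M21 were added after the data were seen. Protein sequences were not used here.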

Additional observations from a re-analysis of the deposited data

How the results depend on the processing

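Ctsl was called higher in all 16 alternatives, with log2 fold changes of 0.84 to 1.10, and Ctsb, Ctsz and Ctsd in 15 of 16, the exception being a minimum change of 1.5-fold. That test left 1 member higher (Ctsl), 10 companion genes higher and 1 lower, and 401 genes higher and 114 lower over all genes, against 6, 33, 9, 2400 and 2545. With the positional correction 5 members were higher and 1, Cst3, lower, against 0 lower without it. Ctsa and Cstb were called in 10 and 14 of 16. Cst3 turned to 0.0133 with library size only, where 3074 genes were higher and 1882 lower. DESeq2 called 1581 genes higher. Leaving out 1 library gave 4 to 6 members higher, 27 to 39 companion genes higher and 5 to 10 lower, and 1516 to 2299 genes higher and 1680 to 2578 lower, the lowest of these without PM2.5 replicate 2 except for the members, where it was PM2.5 replicate 1. The cathepsin to cystatin ratio, 1.54 times higher in PM2.5, was 1.73 from CPM, 1.40 without Ctsl, 1.355 without Cst3, and 1.51 to 1.57 with 1 library left out. With the shortest principal transcript Ctsl ranked 1 in PM2.5 and 3 in controls, against 6 and 6 by RPKM. The cause of these differences was not tested. The replicate numbers were not taken to pair the libraries. The difference of replicate 2 from replicate 1 in PM2.5 correlated with that in controls at 0.188 over 12478 genes. This rests on 2 pairs only. A replicate block called 2797 genes higher and 2976 lower and the same number of members, 6. Depth limits Ctsk, Ctsh, Ctss and Kng2. The companion genes counted as higher include Kng2 and Serpina3n, which entered the test only through their PM2.5 counts.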
